A study of Mus musculus with 10 samples.

Results

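The numbered zinc finger protein genes of mouse are those with the symbol Zfp followed by 3 digits. Of the 29657 genes in the deposited liver RNA-seq table, 313 had such a symbol, and 213 of these, selected on their measured FPKM, reached at least 0.5 FPKM (fragments normalised for transcript length and for library depth) in at least 5 of the 10 libraries. The other 100 lay below that minimum, with a mean of at most 0.521 FPKM, and 71 of them were above 0 in every library. The members were thus chosen by the same values that are compared below. The minimum was reached in no labelled knockdown library by 2 members, Zfp708 and Zfp109, so these had to differ between the groups to be members at all. Just inside the rule, with exactly 5 libraries, were Zfp109, Zfp202, Zfp273, Zfp708, Zfp947 and Zfp976, with means of 0.448 to 0.615 FPKM. Just outside it, with 4 libraries, were Zfp407, Zfp455, Zfp709, Zfp763 and Zfp821, with means of 0.455 to 0.521 FPKM.

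Most of these genes encode proteins with tandem zinc fingers of the Cys2-His2 type, each of which contacts a few bases of DNA. Many also carry a KRAB domain, which recruits the corepressor TRIM28 and the histone methyltransferase SETDB1 to silence retrotransposons and some genes. In mouse liver, KRAB zinc finger genes of the Rsl group, which includes Rsl1, hold down genes that are expressed at higher levels in males.

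The libraries came from livers of wild-type C57BL/6 mice fed CDAHFD, a choline-deficient, high-fat diet used to model steatohepatitis, for 8 weeks. The 5 control libraries were from mice given AAV8-NC, a control adeno-associated virus, and the 5 others from mice given AAV8-TBG-galectin-3. The series title speaks of a galectin-3 knockdown in hepatocytes, the cells in which the TBG promoter works. What the vector carries is not described in the labels. Lgals3, which encodes galectin-3, was at 105, 73.9, 61.6, 71.0 and 42.2 FPKM in control libraries 1 to 5 and at 67.4, 90.8, 85.2, 85.6 and 41.9 FPKM in the others (0.08 ± 0.25 SE in log2 fold change, limma adjusted p = 0.856). The groups overlapped and no decrease was detected, so the second group is called labelled knockdown, and every direction rests on the labels.

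Labelled knockdown 1 stood apart. It was the highest of the 10 libraries for 98 of the 213 members (46.0%), against 19.6% of all tested genes. The FPKM summed over the members was 674 in this library and 506 to 585 in the other 9. Its part in the group differences is given below as the counts without it.

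The gene named in the rule, Zfp708 (ENSMUSG00000058883), was listed at or near 0 in the labelled knockdown libraries. Zfp708 is a KRAB zinc finger gene whose product silences RMER19B retrotransposons in mouse; its coding sequence held 16 finger patterns. The RefSeq promoters of its 2 annotated starts are shown because no other member differed as much between the groups. Each window covers 250 bases before the start and 50 after it on GRCm38.p6, the minus strand of chromosome 13, chr13:67081496-67081795 for the first and chr13:67097927-67098226 for the second, and capitals mark matches on either strand to CCGGAAG, known as the motif of ETS factors, to CACGTG, known as the E-box, or to TATAAA, known as the TATA box.
Zfp708 start 1: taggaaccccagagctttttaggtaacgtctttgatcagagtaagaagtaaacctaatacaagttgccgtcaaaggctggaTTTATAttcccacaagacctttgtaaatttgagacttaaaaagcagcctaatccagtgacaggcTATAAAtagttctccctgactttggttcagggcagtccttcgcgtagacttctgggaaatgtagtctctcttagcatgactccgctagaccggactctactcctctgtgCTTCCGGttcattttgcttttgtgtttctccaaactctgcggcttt
Zfp708 start 2: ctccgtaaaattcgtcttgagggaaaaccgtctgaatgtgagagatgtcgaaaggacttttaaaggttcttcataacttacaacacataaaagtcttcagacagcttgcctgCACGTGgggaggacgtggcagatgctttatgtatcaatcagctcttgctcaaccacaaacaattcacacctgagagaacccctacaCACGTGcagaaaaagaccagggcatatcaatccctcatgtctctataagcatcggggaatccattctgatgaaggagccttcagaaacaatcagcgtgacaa
The first window held 1 match to CCGGAAG and 2 to TATAAA, and the second held 2 to CACGTG. These motifs were chosen after the Zfp708 windows were read. A match is a description of the letters and not of a bound site.

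Zfp708 was at 1.297, 1.45, 0.734, 1.14 and 1.25 FPKM in control libraries 1 to 5. It was listed at 0, 0, 0.0103, 0.0227 and 0 FPKM in labelled knockdown libraries 1 to 5. Every control library thus lay above every labelled knockdown library. The means were 1.17 ± 0.270 and 0.00660 ± 0.0100 FPKM (SD, n = 5 each), and the log2 fold change on the log2(FPKM + 1) scale was -1.10 (SE 0.09). Because the gene was chosen for this difference, no test is given.

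The values of Zfp708 were not independent of those of an overlapping gene. In GENCODE M21, Gm28557 lies over Zfp708 on the same strand, and its transcripts hold 100% of the 50-base words of the longest Zfp708 transcript. Gm28557 was at 0.652, 0.186, 0.441, 0.373 and 0.237 FPKM in control libraries 1 to 5. It was at 1.37, 1.06, 1.10, 1.36 and 1.12 FPKM in labelled knockdown libraries 1 to 5. Here every labelled knockdown library lay above every control library, the opposite of Zfp708. The group means of Gm28557 were 0.378 ± 0.184 and 1.20 ± 0.149 FPKM (0.68 ± 0.10 SE in log2 fold change). No test is given, because this gene was picked after its values were seen, and just 1 control library reached 0.5 FPKM.

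With both genes added together the groups overlapped. The sums were 1.95, 1.63, 1.17, 1.52 and 1.49 FPKM in control libraries 1 to 5, and 1.37, 1.06, 1.11, 1.38 and 1.12 FPKM in labelled knockdown libraries 1 to 5. Their means were 1.55 ± 0.279 and 1.21 ± 0.154 FPKM, a log2 fold change of -0.21 (SE 0.09) where Zfp708 alone had -1.10. Zfp708 took 62.5 to 88.6% of the sum among controls and 0 to 1.64% in the labelled knockdown group. The sources used here do not give how fragments were divided between these overlapping genes, and whether the transcripts or that division differed was not tested. The sum was formed after the values were seen.

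**Figure D1:**
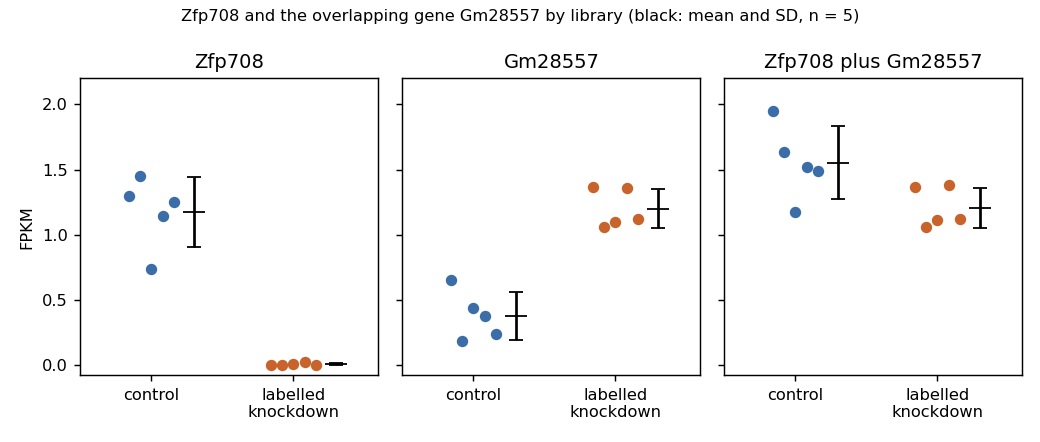
FPKM of Zfp708, of the overlapping gene Gm28557 and of their sum in each of the 5 control and 5 labelled knockdown libraries (points), with the mean and SD beside them in black. Zfp708 and Gm28557 separate the groups in opposite directions, while the sums overlap, with means of 1.55 and 1.21 FPKM.

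Zfp708 sits in a cluster of zinc finger genes that includes Rsl1. Of 18 neighbours in RefSeq order with a row in the table, 10 were tested and 1 passed, where 16.8% of all tested genes did. Zfp874a went from 2.47 ± 0.341 to 1.79 ± 0.248 FPKM (-0.31 ± 0.09 SE in log2 fold change, limma adjusted p = 0.0375), kept by 2 of the 10 leave-one-out fits. Members among the neighbours were Zfp759 (log2 fold change 0.04), Zfp595 (0.06), Zfp953 (-0.08) and Zfp429 (-0.29), with limma adjusted p of 0.817, 0.741, 0.477 and 0.222. Rsl1 itself had means of 1.43 ± 0.144 and 1.19 ± 0.115 FPKM (adjusted p = 0.169). Of a list of 8 tested genes made of Rsl1 and genes held down by the Rsl group or of the same families, 0 passed the limma test, and 0 were higher and 1 lower at an unadjusted p under 0.05. Cyp2d9, a male-biased cytochrome P450 gene of that list, had means of 97.5 ± 29.0 and 137 ± 40.4 FPKM (adjusted p = 0.187).

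Across all members, more were higher than lower. The limma test over all 13471 genes past the minimum put 17 members higher and 4 lower in labelled knockdown at an adjusted p under 0.05. The 4 include Zfp708, which the rule named, and the counts describe genes chosen on these same values. Over all tested genes, 7.13% were called higher and 9.65% lower, 16.8% in either direction. Among members the shares were 7.98% and 1.88%, so the share called higher was near that of all genes. The median log2 fold change was 0.05 over the members and -0.04 over all tested genes, and 135 members lay above 0 and 78 below. Of the 21 members called, 19 were past 0.5 FPKM in all 10 libraries. The groups did not overlap for 14 members above the controls and 5 below, where all tested genes gave 5.66% above and 7.48% below. The 5 below include Zfp708 and Zfp109, which passed the minimum only through the control libraries and so could not overlap. At an unadjusted p under 0.05 stood 35 members above and 11 below, 21.6% of members against 33.5% of all tested genes.

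The differences were small. Apart from the called members, 192 did not pass, and 162 of the 213 lay within 0.2 of 0 on the log2 scale. The SD of the log2 fold changes was 0.19 over members and 0.28 over all tested genes, and the SE of a member had a median of 0.10. Bulk liver RNA cannot tell fewer cells of a type from less RNA per cell. Since the labels do not say how the animals relate to each other, p-values measure the spread between these libraries.

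Among the increases, Zfp653 had the smallest adjusted p. Its RefSeq promoter is shown with that of Zfp664, the decrease whose call also held in every fit without 1 library, both on GRCm38.p6 and picked after their values were seen. They are on chr9:22071327-22071626, minus strand, and chr5:124862455-124862754, plus strand, with the same capitals as above.
Zfp653: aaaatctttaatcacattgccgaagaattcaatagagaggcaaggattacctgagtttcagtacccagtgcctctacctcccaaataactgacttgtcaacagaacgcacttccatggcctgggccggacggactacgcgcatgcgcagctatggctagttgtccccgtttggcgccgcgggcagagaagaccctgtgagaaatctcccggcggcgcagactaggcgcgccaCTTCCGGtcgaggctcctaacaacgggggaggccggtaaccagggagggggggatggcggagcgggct
Zfp664: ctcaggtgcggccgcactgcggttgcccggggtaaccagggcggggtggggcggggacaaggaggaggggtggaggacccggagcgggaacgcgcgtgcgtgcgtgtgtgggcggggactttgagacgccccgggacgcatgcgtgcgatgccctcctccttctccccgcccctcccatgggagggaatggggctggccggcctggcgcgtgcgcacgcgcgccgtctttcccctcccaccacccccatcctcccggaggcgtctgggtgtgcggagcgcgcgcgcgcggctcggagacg
Zfp653 held 1 match to CCGGAAG, and the Zfp664 window held no match to these letters. Over the 217 RefSeq promoters of the 178 members that matched by symbol, 23.0% held CCGGAAG, 8.29% CACGTG and 6.45% TATAAA. Over all 32851 RefSeq promoters of the mouse, which include genes below the expression minimum, the shares were 8.86%, 7.15% and 13.6%. The promoters of tested genes, a closer background, gave 17.3%, 9.97% and 8.00%, but just 9370 of 13458 symbols matched. The unmatched genes were not examined, so no excess among members is read from any of these shares. The 17 promoters of 14 members called higher held them in 23.5%, 0% and 5.88%.

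Zfp653 was at 2.27, 2.21, 1.76, 2.27 and 2.01 FPKM in control libraries 1 to 5 and at 3.997, 3.27, 3.16, 3.45 and 2.71 FPKM in labelled knockdown libraries 1 to 5. All labelled knockdown libraries lay above all controls. The log2 fold change was 0.47 (SE 0.09, limma adjusted p = 0.0102). Zfp688 also rose without overlap, from 1.96, 1.98, 1.95, 1.296 and 1.39 FPKM to 3.19, 2.69, 3.18, 2.33 and 2.36 FPKM (0.47 ± 0.11 SE in log2 fold change, adjusted p = 0.0184). Both calls held in all 10 fits without 1 library, and they were the only 2 of the 17 increases to do so.

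The increases of Zfp414 and Zfp787 passed in 9 of those 10 fits. Zfp787 was at 4.27, 3.55, 3.75, 3.42 and 3.36 FPKM in control libraries 1 to 5 and at 5.71, 4.79, 4.63, 4.36 and 5.22 FPKM in labelled knockdown libraries 1 to 5, with no overlap (0.35 ± 0.08 SE in log2 fold change, limma adjusted p = 0.0211). Zfp414 went from 3.14 ± 0.427 to 4.53 ± 0.635 FPKM without overlap (0.42 ± 0.10 SE in log2 fold change, adjusted p = 0.0214). However, the overlapping annotation Gm20507 holds 43.9% of its words, and their sum did not pass (adjusted p = 0.0752).

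The largest increases on the log2(FPKM + 1) scale were spread more widely. Zfp839 was at 2.43, 2.58, 2.31, 1.99 and 3.05 FPKM in control libraries 1 to 5 and at 6.17, 3.11, 3.00, 3.98 and 5.13 FPKM in labelled knockdown libraries 1 to 5 (0.58 ± 0.16 SE in log2 fold change, limma adjusted p = 0.0322). The groups overlapped, since labelled knockdown 3 lay below control 5, and the call held in 4 of 10 fits. Zfp692, also named AREBP and known to bind an element of the promoter of the gluconeogenic gene Pck1, was at 4.60, 5.45, 3.84, 4.82 and 4.61 FPKM against 11.6, 6.34, 6.63, 5.32 and 6.53 FPKM. Labelled knockdown 1 lay far above the rest, and labelled knockdown 4 lay below control 2 (0.51 ± 0.16 SE in log2 fold change, adjusted p = 0.0499), and the call held in 2 of 10 fits. Zfp992 was at 0.733, 0.537, 0.492, 0.662 and 0.449 FPKM against 1.35, 0.632, 1.17, 1.07 and 2.19 FPKM, with labelled knockdown 2 inside the control range (0.50 ± 0.15 SE in log2 fold change, adjusted p = 0.0397). Its call held in 2 of 10 fits.

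Zfp276 (log2 fold change 0.49), Zfp950 (0.48), Zfp513 (0.40), Zfp825 (0.39), Zfp707 (0.38) and Zfp959 (0.36) completed the 12 largest increases on the log2(FPKM + 1) scale, which ranks low genes lower than their FPKM ratio would. Zfp513, whose human counterpart is a retinal disease gene, went from 5.85 ± 0.910 to 8.07 ± 1.25 FPKM. Zfp950 went from 2.94 ± 0.328 to 4.59 ± 1.21 FPKM with no overlap, and labelled knockdown 1 was its highest library at 6.60 FPKM. Zfp661, Zfp637, Zfp768 and Zfp444, with Zfp787, were the other 5 called, with log2 fold changes of 0.23 to 0.35. The calls of Zfp661, Zfp637, Zfp768 and Zfp444 held in 2, 7, 6 and 2 of those 10 fits. In 16 of the 17 members the 5 labelled knockdown libraries were all above the control mean, the exception being Zfp707, where labelled knockdown 4 was at 5.20 FPKM against a control mean of 5.42. In 10 of the 17 the groups did not overlap. All 17 were called on this same difference, so neither count is a separate result.

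**Figure D2:**
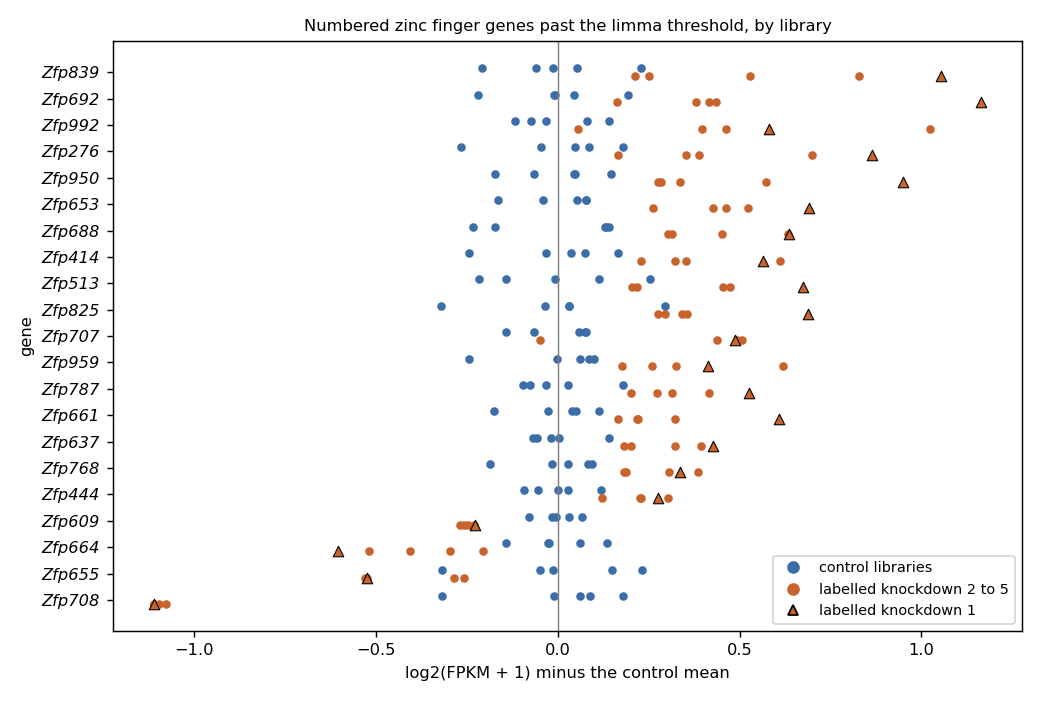
Values of the 21 called members in each library as log2(FPKM + 1) minus that gene's control mean, with control libraries in blue, labelled knockdown libraries 2 to 5 as orange points and labelled knockdown 1 as an outlined triangle. Labelled knockdown 1 was the highest of all 10 libraries for 11 of the 17 higher genes.

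Besides Zfp708, 3 members were lower. Zfp664 was at 3.95, 4.21, 3.67, 3.30 and 3.66 FPKM in control libraries 1 to 5 and at 2.12, 2.31, 2.58, 3.12 and 2.86 FPKM in labelled knockdown libraries 1 to 5. The highest labelled knockdown library stayed below the lowest control, the log2 fold change was -0.41 (SE 0.09, limma adjusted p = 0.0166), and the call held in 10 of 10 fits. Zfp609, which in mouse cortex acts with the cohesin loader Nipbl and the Integrator complex, was at 2.19, 2.06, 2.21, 2.30 and 2.38 FPKM against 1.76, 1.70, 1.72, 1.75 and 1.68 FPKM. It too had no overlap (-0.25 ± 0.06 SE in log2 fold change, adjusted p = 0.0222), but did not pass once the trend with transcript length was removed (adjusted p = 0.180). Zfp655, whose product binds the signalling protein Vav1, was at 5.52, 8.56, 7.06, 6.87 and 8.04 FPKM against 4.66, 5.68, 4.66, 5.81 and 4.64 FPKM. Control 1 lay inside the labelled knockdown range, and the call (-0.42 ± 0.11 SE in log2 fold change, adjusted p = 0.0260) held in 5 of 10 fits. It too did not pass with the length trend removed (-0.33 in log2 fold change, adjusted p = 0.0630).

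The 5 most highly expressed members did not pass the limma test. Mean levels over the 10 libraries ran from 0.448 to 21.6 FPKM with a median of 1.81, and 5 members were over 10 FPKM. Zfp598, counterpart of the human ubiquitin ligase of collided ribosomes, had means of 20.4 ± 3.56 and 22.8 ± 2.94 FPKM (adjusted p = 0.433). Zfp706 had means of 21.2 ± 1.53 and 18.9 ± 1.42 FPKM (adjusted p = 0.184). Zfp207, which encodes the spindle protein BuGZ, had 12.9 ± 1.24 and 13.2 ± 0.878 FPKM (adjusted p = 0.813). Zfp771 was at 12.5, 9.90, 11.4, 12.3 and 12.4 FPKM against 13.9, 14.1, 13.3, 13.6 and 14.1 FPKM, without overlap but with an adjusted p of 0.0556. Zfp445, which helps to keep DNA methylation at imprinted genes, had 9.75 ± 1.37 and 11.8 ± 1.74 FPKM (adjusted p = 0.145).

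Of 27 symbols listed for a known role, 23 were members, and Zfp664 alone passed. The other 22 had log2 fold changes of -0.40 to 0.25 and adjusted p of 0.0600 or more. Zfp410, an activator of the chromatin remodeller gene Chd4, was at 1.56, 1.503, 1.55, 1.58 and 1.64 FPKM against 2.59, 1.74, 1.77, 2.12 and 2.04 FPKM, without overlap (adjusted p = 0.0600). Zfp809, which silences retroviruses in mouse embryonic cells, had means of 6.33 ± 1.36 and 5.89 ± 1.28 FPKM (adjusted p = 0.719). Zfp568, a repressor of placental Igf2 transcripts, ranged from 0.847 to 3.56 FPKM in controls and from 0.383 to 3.22 FPKM in labelled knockdown libraries (adjusted p = 0.515). Zfp746, which represses the PGC-1alpha gene, had means of 2.37 ± 0.291 and 2.61 ± 0.444 FPKM (adjusted p = 0.513). Zfp217 had means of 2.37 ± 0.368 and 1.76 ± 0.265 FPKM (adjusted p = 0.0686).

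Members of either protein type were called. A KRAB-like pattern was found in the coding sequence of 112 members, of which 7 were higher and 1 lower. The 1 lower was Zfp708, which the rule named, so the share lower rests on that gene alone. These were 6.25% and 0.893%, against 7.13% and 9.65% of all tested genes. Of the 100 members without it, 10 were higher and 3 lower, and 1 member, Zfp125, had no coding sequence to search. The median log2 fold changes were 0.06 and 0.04. Members with the pattern had a median level of 1.15 FPKM and a median of 11 finger patterns, and those without had 2.63 FPKM and 7. By finger number, 10 of 68 members with 5 to 9 patterns (14.7%) and 3 of 107 with 10 or more (2.80%) were called higher. Level moved with these counts: among the 57 members with a mean of at least 3 FPKM, 12 were higher and 2 lower (21.1% and 3.51%), where all tested genes at that level gave 9.42% and 11.8%. The 96 members at 1 to 3 FPKM gave 4.17% and 1.04%, against 4.53% and 7.98% of all tested genes there. The 60 members under 1 FPKM gave 1.67% and 1.67%, against 3.13% and 4.64%, and the only lower member there was again Zfp708. The difference between these subsets was not tested.

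Transcript length also moved with the groups. The slope of a library's departures per doubling of length was 0.035 ± 0.011 for controls and -0.035 ± 0.019 for labelled knockdown (log2 units, SD, n = 5 each), and the ranges did not overlap. Members had a median longest transcript of 3495 bases, against 2970 over all tested genes. In 5 classes of equal number over all genes, from the shortest to the longest transcripts, the members numbered 8, 31, 67, 55 and 52, and 1, 5, 5, 4 and 2 of them were called higher. Among all tested genes the corresponding counts were 431, 200, 135, 101 and 54. As shares, these were 12.5%, 16.1%, 7.46%, 7.27% and 3.85% of members and 16.3%, 7.58%, 5.12%, 3.83% and 2.05% of all tested genes. With the trend and each library's mean departure both removed, 24 members were higher and 2 lower (11.3% and 0.939%). All tested genes gave 6.78% and 5.46%, and 14 of the 17 increases were kept. A first version that left each library's mean in place gave 12 and 2 (5.63% and 0.939%, against 4.99% and 6.09%).

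**Figure D3:**
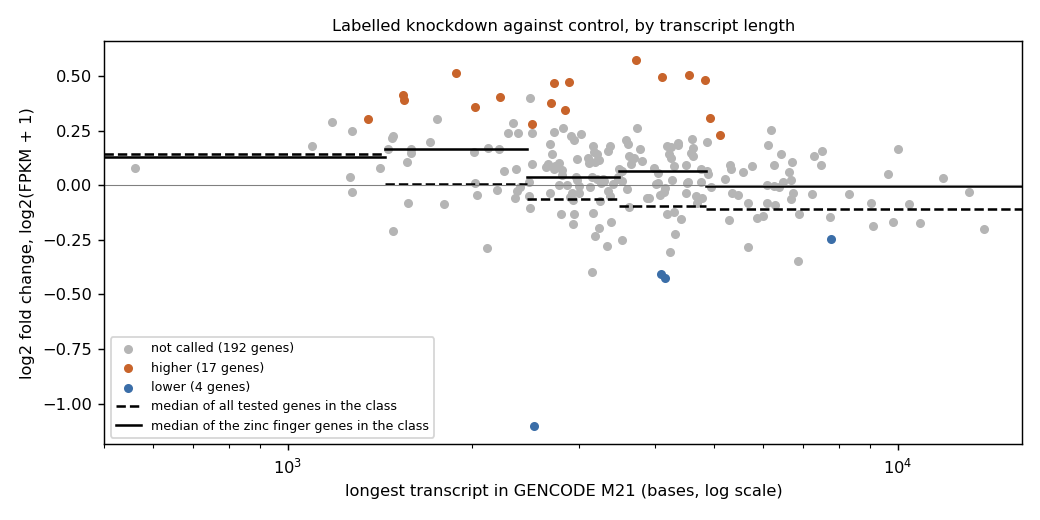
Log2 fold change of each of the 213 members (points, coloured by call) against the length of its longest transcript on a log axis, with the median of the members (solid) and of all tested genes (dashed) in each of 5 length classes. The median of all tested genes went from 0.14 in the shortest class to -0.11 in the longest, and that of the members from 0.13 to -0.01.

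The counts depended on single libraries. Without labelled knockdown 1, 7 members were higher and 3 lower. The number higher was 11, 5, 3, 5 and 11 without control 1, 2, 3, 4 and 5, and 11 and 7 without labelled knockdown 2 and 5. The number lower was 2 without control 3. Over all tested genes, the shares called higher and lower were 4.40% and 6.04% without labelled knockdown 1, and 3.28% and 4.71% without control 3, against 3.29% and 1.41%, and 1.41% and 0.939%, of members. The shares higher without control 1, 2, 4 and 5 were 5.16%, 2.35%, 2.35% and 5.16% of members and 5.83%, 3.65%, 4.64% and 6.99% of all tested genes. Without labelled knockdown 2, 3, 4 and 5 they were 5.16%, 5.63%, 7.98% and 3.29%, against 5.85%, 4.50%, 7.17% and 4.43%. Zfp708, chosen for its difference, is left aside here, and the calls of Zfp664, Zfp653 and Zfp688 held in every one of these 10 fits.

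**Figure D4:**
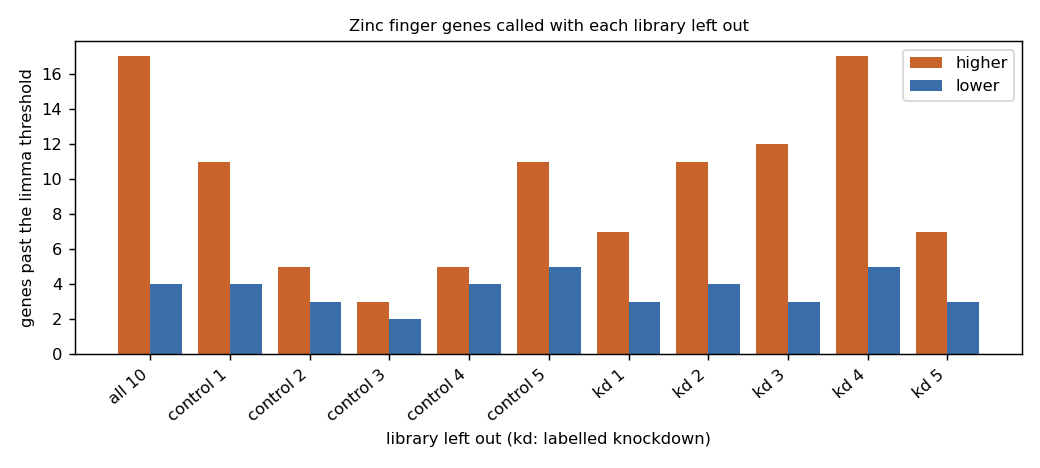
Number of members past the limma threshold as higher (orange) and lower (blue) with all 10 libraries and with each library left out (kd stands for labelled knockdown). The number higher ran from 3 without control 3 to 17, and the number lower from 2 to 5.

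Similar sequences limit the values of some members. Other genes' transcripts together held at least 20% of the 50-base words of 29 members, and 89 members shared none. For 24 of the 29, a single other gene held that much, and among the called members these were Zfp708, Zfp992 and Zfp414. Zfp959 and Zfp825 reached it only over several genes together and were not summed. With 21 members summed with such single genes, 18 were higher and 3 lower, and 16 of the 17 increases were kept. The 18 count 1 group of related genes 3 times, since the sums of Zfp991, Zfp992 and Zfp993 share most of their genes and those of Zfp991 and Zfp993 are identical. Zfp992 summed with Zfp991 and Znf41-ps kept its call (0.43 ± 0.10 SE in log2 fold change, limma adjusted p = 0.0197).

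The partners of KRAB proteins were also examined. Of 36 tested genes of the KRAB corepressor and heterochromatin list, limma called 0 higher and 2 lower, and 2 were higher and 8 lower at an unadjusted p under 0.05. The shares called were 0% and 5.56%, against 7.13% and 9.65% of all tested genes. The list's median log2 fold change was -0.05, against -0.04 over all tested genes. Trim28 had means of 22.1 ± 0.812 and 20.3 ± 1.52 FPKM (log2 fold change -0.12, adjusted p = 0.253), and Setdb1 4.30 ± 0.504 and 4.24 ± 0.356 FPKM (-0.01, adjusted p = 0.927). Rbbp7, a histone chaperone of several chromatin complexes, was at 21.2, 20.2, 18.3, 19.7 and 22.5 FPKM in control libraries 1 to 5 and at 11.99, 13.999, 13.6, 16.8 and 13.4 FPKM in labelled knockdown libraries 1 to 5. It fell without overlap (-0.52 ± 0.09 SE in log2 fold change, adjusted p = 0.00944), in 10 of 10 fits. Mphosph8, a subunit of the HUSH silencing complex, passed with an adjusted p of 0.0461, in 1 of 10 fits.

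Among 120 tested zinc finger genes of other names (other Zfp symbols and the Zbtb, Zkscan, Zscan and Klf families), 2 were higher and 4 lower (1.67% and 3.33%, against 7.13% and 9.65% of all tested genes), with a median log2 fold change of 0.01. Zscan26 rose from 13.8 ± 1.83 to 21.9 ± 4.83 FPKM (0.62 ± 0.14 SE in log2 fold change, limma adjusted p = 0.0160). Zbtb48, a telomere-binding factor, rose from 3.91 ± 0.279 to 5.82 ± 0.889 FPKM (0.46 ± 0.10 SE in log2 fold change, adjusted p = 0.0140). Klf4, Klf12, Zfp518a and Zfp874a were called lower, in 2 to 4 of the 10 fits.

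Some markers of cell types moved with the groups, where 16.8% of all tested genes were called. All 6 hepatocyte markers were tested, 1 higher and 2 lower, with sums of 35224 to 39704 FPKM in controls and 31513 to 39432 FPKM in labelled knockdown libraries. Of 5 tested Kupffer cell markers 2 were lower (sums of 56.4 to 139 FPKM against 27.6 to 64.6), and of 6 stellate cell markers 2 were lower (37.5 to 55.0 against 19.2 to 46.0). Endothelium had 1 of 5 tested markers lower. The lists of monocytes or macrophages, cholangiocytes, T cells and B cells had 10 tested markers together, of which limma called 0, with 0 higher and 1 lower at an unadjusted p under 0.05. All 5 markers of dividing cells were lower (4.39 to 35.7 FPKM against 1.88 to 8.68). Their part in the member differences was not tested. In the authors' deposited table, 25 of the 213 members had a q-value under 0.05, 21 of them up and 4 down. Of the 29657 genes of the whole table, 2623 had one. The members had passed the FPKM minimum and the whole table had not, so these counts have unlike bases and are not compared. The 25 included all 21 called here, but both tests used the same libraries. The authors' mark of significance was carried by 2 members, Zfp708 and Zfp992.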

How the data were processed

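Liver poly(A) RNA from 10 libraries, 5 a group, was sequenced; groups and replicate numbers came from the titles. Tools named by the submitters' processing notes were StringTie 1.3.4d, HISAT2 2.0.4 and cutadapt 1.9. The build in those notes is human, while the gene identifiers are those of mouse Ensembl, so the build of the values is not known and only RefSeq promoter coordinates are printed. Per the labels' protocols, the libraries were strand-marked; whether strand was used in quantification is unknown from these sources.

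Per the file headers, the deposited table held FPKM per library, the authors' fold ratio, its log2 value, and a p-value and q-value from the authors' own test. It held no counts, so no counting interval is given. Every sample column was used, and identical libraries numbered 0 pairs.

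Genes of at least 0.5 FPKM in at least 5 libraries (13471) were compared as log2(FPKM + 1) by limma 3.58.1 (R 4.3.3), with its variance trend on and group as the single term. The p-values are two-sided, adjusted by Benjamini and Hochberg's method over all tested genes and called under 0.05. The scale understates the change of low genes. The fit was tested on simulated data. Named members were Zfp708, up to 12 called increases and decreases by size, the 5 of highest mean, and members on a list of known roles; the other 5 called increases were named after their values were seen, as were neighbours and partner genes.

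The members and gene lists were chosen with earlier results of these data known. Transcript length, word sharing and coding sequences came from GENCODE M21 (lengths for 97.9% of tested genes), and names, gene order and promoters from RefSeq on GRCm38.p6. Fingers and the KRAB domain were counted as letter patterns in the translated coding sequence. Of 3 KRAB patterns tried, the first matched 101 members and missed Zfp708, the second matched 108 in the first 120 residues, and the one used matched 112; it was settled after comparison with the table's pathway annotation. Alternatives were another pseudocount, other minimums, scaling, robust variance moderation, a replicate block, removal of the length trend, sums with genes sharing sequence, and leaving out each library.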

Additional observations from a re-analysis of the deposited data

Results flagged for a closer look

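Of 90 groups of 5 values from the named members, 7 held 1 library far from the rest of its group; chance flags about 1 in 20 groups. Zfp703 was at 0.105 FPKM in labelled knockdown 5, where the other labelled knockdown libraries held 2.48 to 3.30 FPKM. Zfp692 was at 11.6 FPKM in labelled knockdown 1 (others 5.32 to 6.63), and Zfp825 at 13.5 FPKM in the same library (others 9.89 to 10.5). In labelled knockdown 4, Zfp707 was at 5.20 FPKM (others 7.69 to 8.11) and Zfp652 at 3.03 FPKM (others 2.44 to 2.57). Zfp207 was at 15.0 FPKM in control 5 (others 12.1 to 12.7), and Zfp335 at 4.02 FPKM in control 2 (others 3.37 to 3.53).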

How the results depend on the processing

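No call and no median of the members turned its direction under these alternatives. With a pseudocount of 0.1, an FPKM minimum of 1, median-of-ratios scaling or robust moderation, members higher and lower stayed within 1.5 times of 17 and 4. Scaling moved the split of all genes from 960 higher and 1300 lower to 1212 and 1020, and the median of all genes by 0.03. With no filter on low values, 5 members were higher and 3 lower (2.35% and 1.41%). Of all genes, which then included those below the minimum, 511 and 682 were higher and lower (1.72% and 2.30%). Without the length trend and each library's mean departure, 2 members and 720 of all genes were lower. With library means kept, which was the first version run, 2 and 803 were lower, and 12 members and 658 of all genes were higher. The authors' deposited mark, which also needs a fold change, gave 160 up and 238 down. Leaving out each library gave 3 to 17 members higher, 2 to 5 lower, a member median of 0.01 to 0.08, and 442 to 966 higher and 549 to 1736 lower over all genes. With the replicate number as a block, 9 members were higher and 3 lower (4.23% and 1.41%), and 9 of the 17 increases were kept. All tested genes gave 5.71% and 7.32%. Same-numbered libraries correlated at -0.015 to 0.114, and 3 of 10 correlated best with their own number. These correlations cannot settle whether the numbers pair the libraries, since the labels do not say how the animals relate. The cause of these shifts was not tested. The sums with genes sharing sequence, the library-mean version, and the KRAB patterns, promoter motifs and promoters shown were chosen after seeing the data.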

Other observations

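By a criterion set after the values were seen, 3 genes of the whole table had every library of one group at least 4-fold from every library of the other, with a mean over 0.5 FPKM in the higher group. They were Zfp708, ENSMUSG00000121808 (0.802 ± 0.0428 FPKM in controls and 4.45 ± 0.584 FPKM in labelled knockdown libraries, SD, n = 5 each) and Gm34474 (0.0164 ± 0.0367 and 0.938 ± 0.823 FPKM), which was listed at 0 in 4 of 5 control libraries. Zfp708 had been chosen for its difference, so its place here is no separate result. Summed with the overlapping gene Gm28557, it did not separate the groups (means of 1.55 and 1.21 FPKM).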
